A study of Arabidopsis thaliana with 11 samples.

Results

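Among the transcripts of Arabidopsis thaliana guard-cell-enriched samples, 73 of 28718 loci (0.254%) stood higher than in unsalted plants after a single round of salt and lower than in unsalted plants after a stepwise course of 3 rounds. They were chosen from group means of the deposited normalised log2 table. The rule asked for 1x salt minus no salt of at least 0.7, 3x salt minus no salt of at most -0.5, and a largest group mean of at least 8. Those means chose the genes, so the differences between groups are given below as a description, with no test. All 11 arrays entered the rule, and none is left as an independent check. Of the 73 genes, 33 have a symbol in the RefSeq gene table (assembly TAIR10.1) and 2 more have a synonym used here, SAUR50 and NPF6.2.

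The groups were 1x salt (3 samples), 3x salt (4 samples) and no salt (4 samples), all of the accession Columbia-0 and 6 to 7 weeks old. For 1x salt, pots were soaked for 2 h in 200 mM NaCl on days 13 and 14. For 3x salt the same 2 soakings were preceded by 75 mM NaCl on days 1 and 2 and 150 mM NaCl on days 7 and 8, and for no salt tap water was used throughout. Harvest was on day 15, 4 h into the light period, for every group, and RNA of each sample was hybridised to its own 1-colour Agilent array. Whether replicate samples come from different plants is not stated in the labels, so the spread between them may be technical.

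Guard cells are the paired epidermal cells around a stomatal pore, and the pore opens and closes as their turgor changes. Their walls must stretch and recoil with each movement, and pectin, xyloglucan and cell-surface glycoproteins set how a plant wall yields. Growing leaf cells draw on the same wall enzymes, together with auxin and other growth hormones. In plants, salt first lowers the water supply to the shoot and later loads the leaf with sodium and chloride, and slower leaf growth is a common response.

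All 12 guard cell markers were above background in each group. On the scanner values, with one limma model over all 11 arrays and a Benjamini-Hochberg adjusted p of 0.05 as the threshold, 2 of these 12 rose and none fell in 1x salt, and 1 rose and 7 fell in 3x salt. Of all genes tested, 9.21% rose and 7.68% fell in 1x salt, and 27.9% rose and 23.6% fell in 3x salt. The summed signal of the guard cell markers was 76.3 to 91.9 in 1x salt, 37.1 to 53.2 in 3x salt and 56.6 to 68.9 in no salt, in multiples of each array's 75th percentile. The 6 mesophyll markers were also above background in each group, with sums of 535 to 858, 313 to 375 and 543 to 752 in 1x salt, 3x salt and no salt, and 6 of 6 fell in 3x salt. In 1x salt none of the 6 passed with limma, and 1 was higher at an unadjusted p under 0.05. Phloem markers rose in 4 of 6 cases in 1x salt, and in 3x salt 2 rose and 1 fell. Of 4 stomatal lineage markers tested, 3 rose in 1x salt and 2 in 3x salt, and the sum of all 6 was 1.24 to 1.77 in 1x salt, 1.13 to 1.22 in 3x salt and 0.884 to 1.17 in no salt. The part of these cell types in the results below was not tested. In such bulk samples, fewer cells of a type and less RNA per cell cannot be told apart. Over the 23457 genes tested, of which 19320 are loci and 4137 array targets matched to no locus, 3962 passed in 1x salt and 12068 in 3x salt, and the 1x salt count ran from 2277 (without 1x salt array 3) to 5580 (without 1x salt array 1) when 1 array was left out. The arrays of a group included close pairs and a close trio (1x salt arrays 2 and 3, 3x salt arrays 1 and 2, 3x salt arrays 3 and 4, and no-salt arrays 2, 3 and 4). With each of these sets averaged to 1 sample, 2 genes passed in 1x salt and 2218 in 3x salt, where 4.7% of all genes fell. In that setting 1 guard cell marker rose and 1 fell in 3x salt, 1 mesophyll marker fell there, and none of the guard cell, mesophyll, phloem and stomatal lineage markers passed in 1x salt.

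Across the 73 genes, the 1x salt mean was above the no-salt mean by 0.71 to 2.92 on the log2 scale, with a median of 0.88. The 3x salt mean was below it by differences of -4.70 to -0.50, with a median of -0.83. The median difference of 3x salt minus 1x salt was -1.84. Of the members, 12 passed 1 in both directions, while 29 stood at least 1 higher in 1x salt and 23 at least 1 lower in 3x salt. The rise alone, with the floor on level, was met by 811 loci (2.82%) and the fall alone by 2769 (9.64%).

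**Figure D1:**
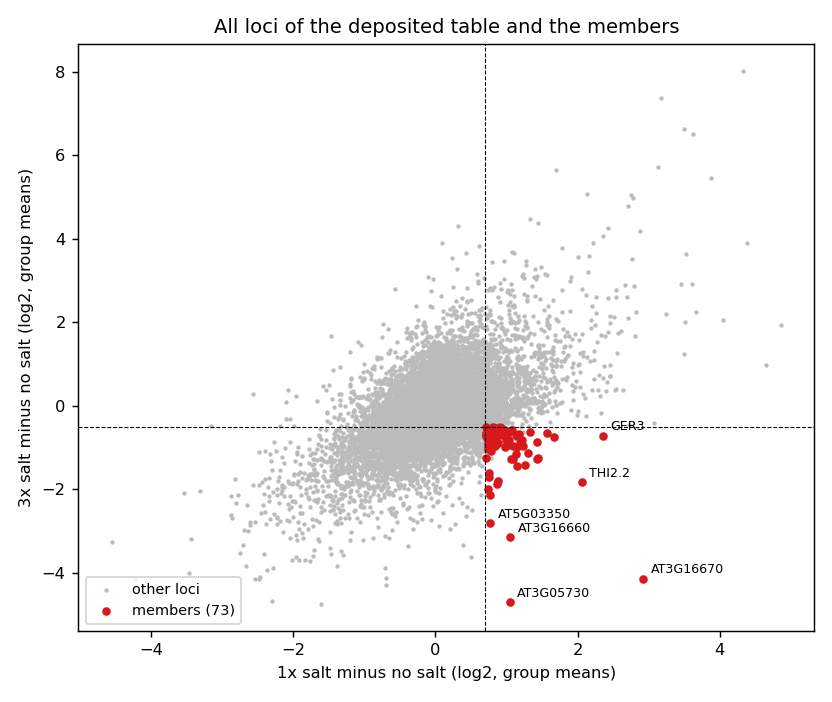
Each point is a locus of the deposited table, with 1x salt minus no salt on the horizontal axis and 3x salt minus no salt on the vertical axis, both log2 differences of group means; red points are the 73 members and dashed lines the thresholds of 0.7 and -0.5. The median differences of the members are 0.88 and -0.83, and AT3G16670 (2.92 and -4.14) lies farthest from the corner of the thresholds.

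At the edge of the rise were AT3G05620 (0.711), AT4G34760 (0.713) and AGP18 (0.716) inside, and AT5G18970 (0.699), AT1G68230 (0.693) and SEOR1 (0.679) just outside. At the edge of the fall were LGT9 (-0.505), AT1G09750 (-0.514) and AT4G34760 (-0.516) inside, and AT4G18970 (-0.499), AT4G38700 (-0.492) and PDF1 (-0.482) outside. At the floor were AT3G05470, AT3G06880 and AT3G05620 inside, with largest means of 8.02, 8.03 and 8.09, and AT2G44260, AT5G56880 and AT3G43715 outside, with 7.66, 7.63 and 7.48. For the rise and the fall, these distances from the threshold are smaller than the median SD of a member within a group, which was 0.32 in 1x salt, 0.38 in 3x salt and 0.26 in no salt.

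The higher level in 1x salt was shared by its 3 arrays for most members, and the lower level in 3x salt was not shared evenly by its 4. All 3 1x salt arrays lay above all 4 no-salt arrays in 68 members, where 9.65% of all loci did so. All 4 3x salt arrays lay below all 4 no-salt arrays in 47 members, where 15.6% of all loci did so, and 43 members met both, as did 0.857% of all loci. The rule used these values, and nothing is read from the shares. The median member stood 1.05, 0.83 and 0.94 above the no-salt mean on 1x salt arrays 1, 2 and 3. On 3x salt arrays 1 and 2 the median member stood at -0.52 and -0.56, and on arrays 3 and 4 at -1.23 and -1.25. The 4 no-salt arrays were at -0.32, 0.13, 0.09 and 0.12, so array 1 lay below the other 3, and it was the lowest of the 4 in 53 members. The median over all loci lay within 0.021 of the no-salt mean on each of the 11 arrays.

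**Figure D2:**
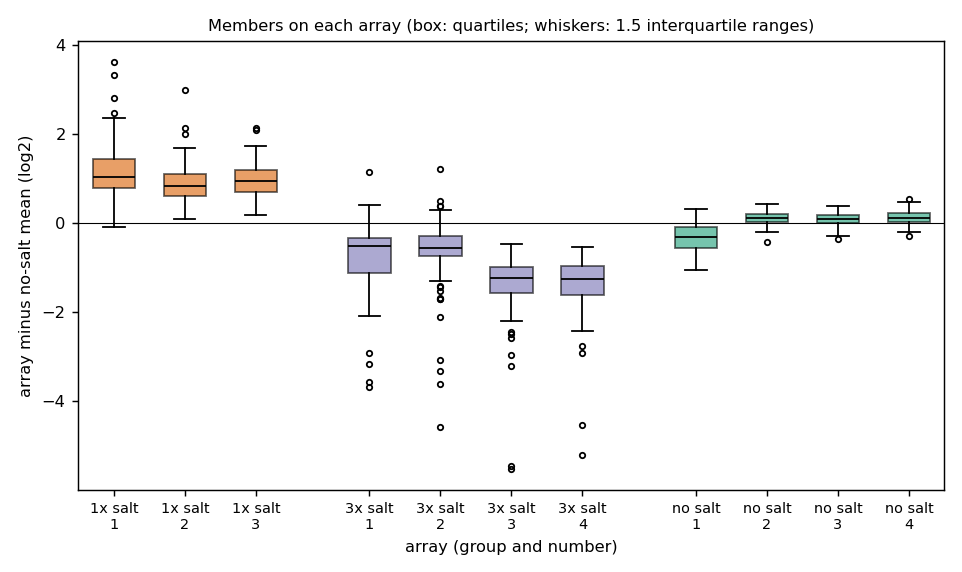
For each array, in the order 1x salt, 3x salt and no salt, the box shows the quartiles over the 73 members of the array's log2 level minus the member's no-salt mean, with the median as a line, whiskers to 1.5 interquartile ranges and points beyond. The 3x salt arrays form 2 pairs, with medians of -0.52 and -0.56 on arrays 1 and 2 and of -1.23 and -1.25 on arrays 3 and 4.

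Members stood higher on 3x salt arrays 1 and 2 than on arrays 3 and 4 in 66 of 73 cases (90.4%), by a median of 0.61. Among the 2696 other loci that met the fall and the floor, 49.4% stood higher on arrays 1 and 2, with a median gap of -0.01, and among all loci the figure was 49.8%. The loci that met the rise were not compared, so the split is not shown to be particular to the members. Among non-members called higher in 1x salt, the xyloglucan transglucosylase XTH9 was split too. On the scanner values it stood at 2.99, 3.07, 1.14 and 1.37 on 3x salt arrays 1 to 4. The alpha-expansin EXPA9 ran the other way, with -1.19, -1.45, -0.75 and -0.87. With the mean of arrays 1 and 2 alone, 37 members were at -0.5 or below against no salt, and 8 were above it. With arrays 3 and 4 alone, 73 of 73 were at -0.5 or below. Slides differ from these pairs: 3x salt array 1 shared slide 1 with 1x salt array 1 and no-salt array 1, and 3x salt array 4 shared slide 6 with no-salt array 4. Within slide 1 the median 3x minus no-salt difference was -0.26, with 52 members lower and 21 higher, and within slide 6 it was -1.37, with 73 lower. For 1x minus no salt the median was 1.32 on slide 1 (73 higher), 0.72 on slide 2 (72 higher) and 0.84 on slide 4 (73 higher).

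Among members with a symbol or a synonym used here, the largest role group was the cell wall and cell surface, with 13 members. This and the other role groups below were formed after the values were seen, from the RefSeq symbols and synonyms. Members with neither were given no role, so the groups may miss genes of the same function. All 13 had every 1x salt array above every no-salt array, as did 68 of the 73 members and 9.65% of all loci. In 5 of 13 every 3x salt array lay below every no-salt array, as in 47 of the 73 members and 15.6% of all loci. The rule used these values. The median gap of the 13 between 3x salt arrays 1 and 2 and arrays 3 and 4 was 1.04, against 0.61 over all 73 members. Of the 17 members with a gap above 1, 7 belonged here.

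XTH6 (AT5G65730) belongs to the xyloglucan endotransglucosylase/hydrolases, which cut and rejoin the xyloglucan chains that tether cellulose. Its log2 level was 13.14, 13.62 and 13.51 in 1x salt, 11.78, 11.94, 10.93 and 10.72 in 3x salt, and 12.04, 12.30, 12.31 and 12.29 in no salt. The 3 groups did not overlap, and the level averaged 13.42 ± 0.25 (SD, n = 3) in 1x salt, 11.34 ± 0.61 (n = 4) in 3x salt and 12.24 ± 0.13 (n = 4) in no salt. That is 2.28-fold higher in 1x salt and 1.86-fold lower in 3x salt.

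PGIP2 (AT5G06870) encodes a wall protein that inhibits the polygalacturonases of fungi and so protects pectin. It read 13.92, 14.47 and 14.35 in 1x salt, 12.24, 12.63, 12.54 and 12.50 in 3x salt, and 13.24, 13.31, 13.50 and 13.41 in no salt. The groups did not overlap, and its 4 3x salt arrays lay close together (SD 0.17), unlike those of most wall genes. The differences from no salt were 0.88 in 1x salt and -0.89 in 3x salt.

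Pectin itself was represented by 3 of the members with a symbol. GALS1 (AT2G33570), a synthase of the galactan side chains of pectin, read 12.40, 12.44 and 12.11 in 1x salt, 11.26, 11.16, 10.02 and 10.01 in 3x salt, and 11.26, 11.81, 11.64 and 11.61 in no salt. PME41 (AT4G02330), a pectin methylesterase, which strips methyl groups from pectin, read 12.62, 12.05 and 11.74 in 1x salt, 10.74, 10.93, 10.30 and 10.29 in 3x salt, and 10.62, 11.40, 11.49 and 11.40 in no salt. LGT9 (AT1G24170), of the galacturonosyltransferase-like family, read 14.47, 14.12 and 14.11 in 1x salt, 13.54, 13.62, 12.09 and 12.00 in 3x salt, and 12.71, 13.58, 13.55 and 13.43 in no salt. In GALS1 and PME41 the lowest no-salt array, array 1, reached or passed below the higher 3x salt arrays, and in LGT9 the 2 groups overlapped widely. CSLA11 (AT5G16190), of a family that makes the backbone of mannan, did not overlap between 3x salt (8.41 to 9.22) and no salt (9.65 to 10.00), with 10.31, 10.91 and 10.68 in 1x salt.

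Arabinogalactan proteins are heavily glycosylated proteins of the cell surface. AGP18 (AT4G37450) read 9.05, 9.20 and 9.23 in 1x salt, 7.76, 7.80, 6.42 and 6.76 in 3x salt, and 7.88, 8.55, 8.52 and 8.84 in no salt. Its groups did not overlap, and its difference from no salt was 0.72 in 1x salt and -1.26 in 3x salt. FLA12 (AT5G60490) and FLA13 (AT5G44130) are fasciclin-like members of the class, which carry adhesion-type domains. FLA12 read 10.34, 10.00 and 9.79 in 1x salt, 8.96, 8.95, 7.53 and 7.39 in 3x salt, and 8.73, 9.16, 8.89 and 8.85 in no salt. FLA13 read 15.70, 15.50 and 15.51 in 1x salt, 14.80, 14.89, 12.54 and 12.64 in 3x salt, and 13.80, 14.57, 14.62 and 14.60 in no salt. For both, 1x salt lay above the other groups on every array, while 3x salt arrays 1 and 2 lay within or above the no-salt range and arrays 3 and 4 below it.

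PHI-1 (AT1G35140), of the EXORDIUM-like family of extracellular proteins, had the widest such split. It read 14.00, 13.11 and 13.11 in 1x salt, 13.52, 13.60, 9.80 and 9.96 in 3x salt, and 11.32, 12.59, 12.77 and 12.84 in no salt. 3x salt arrays 1 and 2 thus lay above every no-salt array and arrays 3 and 4 below every one, so the 3x salt mean of 11.72 ± 2.12 (SD, n = 4) lies between the 2 pairs. Its mean over arrays 1 and 2 was 1.18 above no salt and its mean over arrays 3 and 4 was 2.50 below it (-2.50).

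The remaining wall genes of this role group were GER3, sks4 and DIR6. GER3 (AT5G20630), a germin-like protein, had one of the largest differences in 1x salt, 2.36, with 9.91, 8.72 and 8.21 in 1x salt, 5.42, 6.02, 6.09 and 5.95 in 3x salt, and 5.91, 6.56, 6.82 and 7.05 in no salt. Its 3x salt and no-salt arrays overlapped, and 3 of its 4 3x salt arrays were above background. The gene sks4 (AT4G22010), related to the multicopper-oxidase-like SKU5, stood 1.22 higher in 1x salt and 0.83 lower in 3x salt (-0.83), with no overlap. DIR6 (AT4G23690), a dirigent protein that steers the coupling of lignan precursors, stood at 0.83 and -0.54.

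**Figure D3:**
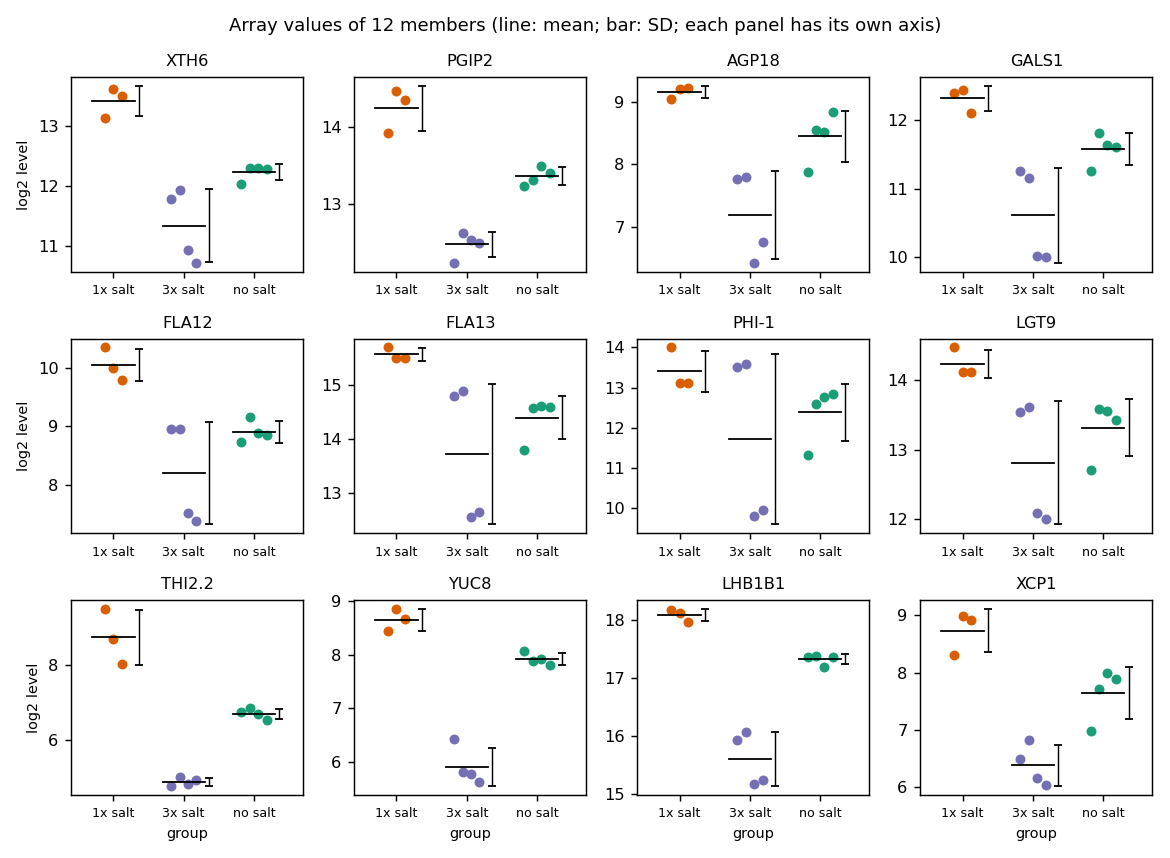
Log2 levels on every array for 12 members, with the group on the horizontal axis in the order 1x salt, 3x salt and no salt; lines are group means and bars SD, and each panel has its own vertical axis. In FLA12, FLA13, PHI-1 and LGT9 the 4 3x salt points fall into 2 pairs on either side of or around the no-salt points, whereas in PGIP2 and THI2.2 they lie together below them.

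In 8 members the mean of 3x salt arrays 1 and 2 lay above the no-salt mean. Besides FLA12 (0.05), FLA13 (0.45), PHI-1 (1.18) and LGT9 (0.26), they were SAUR50 (AT4G34760, 0.35), a small auxin-induced protein of a family that drives cell expansion, and AT2G23690 (0.30), AT3G06770 and AT4G37240 (0.03), which carry no symbol. For these 8 the lower level in 3x salt rests on arrays 3 and 4, where AT4G37240 stood at -2.85, FLA13 at -1.81 and SAUR50 at -1.38. A wide gap alone did not place a gene here: AT5G01015 stood at -0.43 on arrays 1 and 2 and at -2.43 on arrays 3 and 4. In the other direction, AT5G03350 stood at -3.38 on arrays 1 and 2 and at -2.24 on arrays 3 and 4, and AT5G19110 at -1.39 and -0.52. The 2 pairs of arrays carry the same label, and what separates them is not given in the labels.

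**Figure D4:**
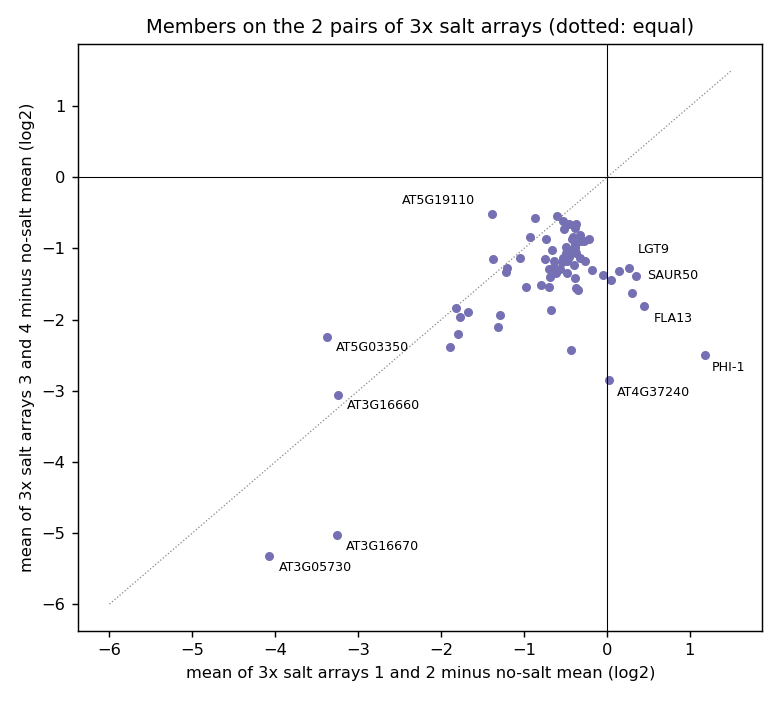
Each point is 1 of the 73 members, with the mean of 3x salt arrays 1 and 2 minus the no-salt mean on the horizontal axis and the same for arrays 3 and 4 on the vertical axis, in log2 units; the dotted line marks equal values. Most members lie below the line, and 8 lie right of 0, with PHI-1 farthest at 1.18 and -2.50.

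With all 11 arrays, no other xyloglucan transglucosylase or fasciclin-like gene tested both rose in 1x salt and fell in 3x salt, and the counts changed with the 3x salt arrays used. Of 19 xyloglucan transglucosylases other than XTH6, 8 rose and none fell in 1x salt, where 9.21% of all genes rose and 7.68% fell, and 6 rose and 3 fell in 3x salt, where 27.9% rose and 23.6% fell. Over all genes, 0.951% did both. Without 3x salt arrays 1 and 2, 12 of the 19 rose in 1x salt (10.6% of all genes) and 2 did both. In 3x salt 4 then rose and 5 fell (21.1% of all genes fell), with a median difference of -0.2. Without 3x salt arrays 3 and 4, 12 rose in 1x salt (2392 of 23457 genes) and 1 did both. In 3x salt 9 then rose and 3 fell (5715 and 4639 of 23457 genes), with a median difference of 0.97. XTH25 (AT5G57550) and XTH4 (AT2G06850) rose in both regimes, by 3.66 (SE 0.15, limma adjusted p = 2.87e-06) and 2.94 (SE 0.39, limma adjusted p = 0.00139) in 1x salt and by 3.00 (SE 0.14) and 2.19 (SE 0.36) in 3x salt. XTH8 (AT1G11545) came nearest to XTH6, with 0.70 in 1x salt (SE 0.22, limma adjusted p = 0.0557) and -1.55 in 3x salt (SE 0.21, limma adjusted p = 0.000218), a call not kept with close arrays averaged (-1.36, adjusted p = 0.0596). In 1x salt XTH8 passed under 5 of the other settings (adjusted p from 0.0338 to 0.0486). With close arrays averaged, 1 of the 19 rose in each regime (XTH25) and the XTH4 values were 3.15 (adjusted p = 0.177) and 2.30 (adjusted p = 0.0557).

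Of 9 fasciclin-like proteins other than FLA12 and FLA13, 1 rose and 1 fell in 1x salt, where 9.21% and 7.68% of all genes did. None rose and 6 fell in 3x salt, where 23.6% of all genes fell. Without 3x salt arrays 1 and 2, 4 rose in 1x salt (10.6% of all genes), 9 of 9 fell in 3x salt (21.1%) and 4 did both. Without arrays 3 and 4, 3 rose in 1x salt (2392 of 23457 genes), 5 fell in 3x salt (4639 genes) and 0 did both. For either family, the share of all genes that did both was not counted with a pair of arrays left out. FLA11 (AT5G03170), known from the secondary walls of stems, rose by 1.43 in 1x salt (SE 0.32, limma adjusted p = 0.0152) and stood at -0.44 in 3x salt (SE 0.30, limma adjusted p = 0.244), or -1.04 without 3x salt arrays 1 and 2 (adjusted p = 0.00227). The FLA11 call in 1x salt was lost without 1x salt array 2 (1.33, adjusted p = 0.0565). FLA16 (AT2G35860) fell in both regimes, by 0.50 in 1x salt (SE 0.10, limma adjusted p = 0.0102, but 0.128 with the mean of its probes) and by 1.99 in 3x salt (SE 0.10). FLA8 (AT2G45470) stood at -0.27 in 1x salt (SE 0.13) and fell by 1.91 in 3x salt (SE 0.12). With close arrays averaged, none of the 9 passed in 1x salt and 4 fell in 3x salt, and FLA11 in 1x salt stood at 1.51 (adjusted p = 0.248).

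**Figure D5:**
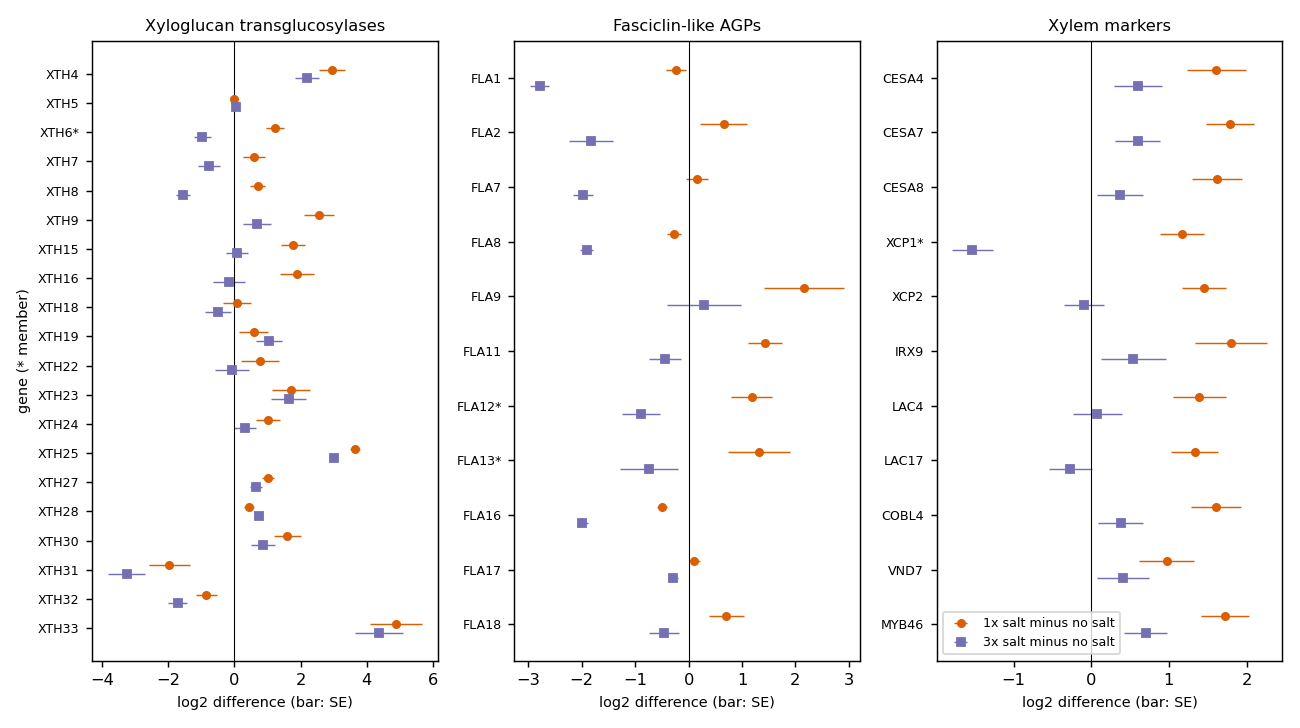
Log2 differences from no salt on the scanner values, with bars for the standard error of the limma fit, for the tested xyloglucan transglucosylases, fasciclin-like proteins and xylem markers; circles are 1x salt and squares 3x salt, and an asterisk marks a member. XTH6 and XCP1 stand right of 0 in 1x salt and left of it in 3x salt, whereas XTH4 and XTH25 stand right of 0 in both.

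Among the members with a symbol, 3 were proteases, each with no overlap between groups. Of all loci, 0.857% had every 1x salt array above and every 3x salt array below every no-salt array. The rule used these values. XCP1 (AT4G35350), the cysteine peptidase that clears the contents of dying xylem vessels, read 8.30, 8.99 and 8.91 in 1x salt, 6.49, 6.83, 6.16 and 6.04 in 3x salt, and 6.98, 7.72, 7.99 and 7.88 in no salt. The differences were 1.09 and -1.26. The other 10 xylem markers did not follow it in 3x salt. With limma 9 rose in 1x salt (9.21% of all genes), and none rose or fell in 3x salt (27.9% and 23.6% of all genes). In 3x salt 1 was higher at an unadjusted p under 0.05. CESA7 (AT5G17420), a cellulose synthase of secondary walls, and MYB46 (AT5G12870), a regulator of those walls, rose by 1.79 (SE 0.31) and 1.72 (SE 0.31) in 1x salt (limma adjusted p = 0.00474 and 0.00532) and stood at 0.60 and 0.70 in 3x salt (limma adjusted p = 0.107 and 0.0613). Without 3x salt array 3 or array 4, both passed there, CESA7 at 0.77 and 0.79 (adjusted p = 0.0496 and 0.0442) and MYB46 at 0.85 and 0.88 (adjusted p = 0.0391 and 0.0283). The summed signal of the 11 xylem markers, XCP1 included, was 3.47 to 5.58 in 1x salt, 1.21 to 2.63 in 3x salt and 1.35 to 1.89 in no salt. The xylem markers too were split among the 3x salt arrays. Without arrays 3 and 4, 7 of the 10 were above no salt at the threshold, as were 5715 of 23457 genes. Without arrays 1 and 2, 0 were higher and 1 lower, against 5441 and 4954 of 23456 genes. With close arrays averaged, none of the 10 passed in 1x salt, where CESA7 stood at 1.74 (adjusted p = 0.218) and MYB46 at 1.77 (adjusted p = 0.212). The part of xylem RNA in the members' levels was not tested.

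BRS1 (AT4G30610), a secreted serine carboxypeptidase that restores growth to weak brassinosteroid receptor mutants when overexpressed, read 9.18, 8.46 and 8.96 in 1x salt, 6.83, 6.82, 6.25 and 6.11 in 3x salt, and 7.37, 8.44, 8.39 and 8.28 in no salt. No-salt array 1 lay about 1 log2 unit below the other 3, and the lowest 1x salt array exceeded the highest no-salt array by little. The subtilase SBTI1.1 (AT1G01900) stood at 0.85 and -0.79.

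Growth regulators contributed 4 members. YUC8 (AT4G28720), a flavin monooxygenase of the last step of auxin synthesis, read 8.44, 8.84 and 8.66 in 1x salt, 6.43, 5.81, 5.78 and 5.64 in 3x salt, and 8.06, 7.88, 7.92 and 7.80 in no salt. Its lower level in 3x salt, 4.00-fold, was much larger than its higher level in 1x salt, 1.66-fold, and all 4 3x salt arrays shared it. On the scanner values its difference in 3x salt was -2.59, and -1.25 with normexp background correction. OFP15 (AT2G36050), of the OVATE family of transcriptional repressors, stood at 1.15 and -0.98, and CYCP4;1 (AT2G44740), a P-type cyclin, at 0.98 and -1.0, both without overlap. SAUR50 read 10.77, 10.05 and 10.11 in 1x salt, 9.92, 9.98, 8.29 and 8.14 in 3x salt, and 9.11, 9.60, 9.85 and 9.83 in no salt, so its first 2 3x salt arrays lay above every no-salt array. Of 23 genes of auxin response and transport, none of them a member, 1 rose and 4 fell in 1x salt and 1 rose and 15 fell in 3x salt (0 and 0, and 0 and 5, with close arrays averaged). Of all genes, 9.21% rose and 7.68% fell in 1x salt, and 27.9% rose and 23.6% fell in 3x salt.

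Metabolism contributed 7 members, and 7 of 7 had no overlap in either direction. Of all loci, 0.857% had every 1x salt array above and every 3x salt array below every no-salt array. The rule used these values. Their median gap between 3x salt arrays 1 and 2 and arrays 3 and 4 was 0.09, the smallest among the role groups of more than 1 gene, although APX5 (-0.32 and -1.13 on the 2 pairs) and BCCP2 (-0.57 and -1.29) were split. MSRB6 (AT4G04840), a methionine sulfoxide reductase that repairs oxidised proteins, read 11.45, 11.99 and 11.80 in 1x salt, 9.13, 9.05, 8.92 and 9.12 in 3x salt, and 9.74, 10.41, 10.48 and 10.58 in no salt. That was 2.72-fold higher in 1x salt and 2.38-fold lower in 3x salt, with an SD of 0.10 over the 3x salt arrays.

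In sugar and carbon metabolism, SUS5 (AT5G37180), a sucrose synthase, stood at 0.77 and -0.96 in the deposited table, and its difference in 1x salt was only 0.23 on the scanner values. HKL1 (AT1G50460), a hexokinase-like protein, read 12.22, 12.44 and 12.29 in 1x salt, 10.84, 10.79, 10.71 and 10.74 in 3x salt, and 11.32, 11.23, 11.37 and 11.46 in no salt. PPC3 (AT3G14940), a phosphoenolpyruvate carboxylase, the enzyme that in guard cells feeds malate synthesis, read 11.57, 10.79 and 11.47 in 1x salt, 9.88, 9.78, 9.87 and 9.89 in 3x salt, and 10.01, 10.59, 10.47 and 10.66 in no salt. HKL1 and PPC3 had small differences in 3x salt, both -0.58, and narrow spreads there. In plastid lipid metabolism, BCCP2 (AT5G15530), a subunit of the acetyl-CoA carboxylase that starts fatty acid synthesis, stood at 1.02 and -0.93, and FAP3 (AT1G53520), a fatty-acid-binding protein, at 0.78 and -1.09. APX5 (AT4G35970), an ascorbate peroxidase, stood at 0.72 and -0.72.

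Among defence and signalling genes, THI2.2 (AT5G36910), a thionin, which is a small antimicrobial peptide, read 9.51, 8.71 and 8.04 in 1x salt, 4.76, 5.00, 4.81 and 4.91 in 3x salt, and 6.73, 6.85, 6.68 and 6.53 in no salt. It was 4.16-fold higher in 1x salt, and it was not well above background on any 3x salt array, so its level there is a bound. On the scanner values without normexp it was at least 4.37-fold lower in 3x salt. The deposited table gave 3.55-fold lower, and with normexp the difference was -0.91, so 4.37-fold is a minimum under that processing only. The receptor-like kinase RKL1 (AT1G48480) stood at 0.92 and -0.54, RTM3 (AT3G58350), which restricts long-distance movement of tobacco etch virus, at 0.76 and -0.80, MLO13 (AT4G24250), of the family known for powdery mildew susceptibility, at 0.75 and -0.63, and PDLP7 (AT5G37660), a protein of plasmodesmata, at 0.72 and -0.64. NPF6.2 (AT2G26690), of the nitrate and peptide transporter family, stood at 1.32 and -0.62 and did not overlap. The histone H2A gene HTA6 (AT5G59870) stood at 0.75 and -0.85.

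LHB1B1 (AT2G34430), a light-harvesting chlorophyll-binding protein of photosystem II, read 18.16, 18.12 and 17.96 in 1x salt, 15.93, 16.07, 15.18 and 15.25 in 3x salt, and 17.36, 17.37, 17.19 and 17.36 in no salt. The groups did not overlap. Its relatives are close to it in sequence, so its probes may also bind their transcripts. Of the 34 other genes of light harvesting, photosystems and Rubisco, none passed in 1x salt with limma, nor at an unadjusted p under 0.05 (0 genes). In 3x salt 33 fell, where 23.6% of all genes fell. With close arrays averaged 7 fell there, where 4.7% of all genes fell. PSAK (AT1G30380) and PSAL (AT4G12800), subunits of photosystem I, stood at 0.07 and -0.22 in 1x salt and fell by 1.03 and 1.24 in 3x salt (SE 0.11 and 0.13). PSAL passed in 1x salt without 1x salt array 1 (-0.41, adjusted p = 0.021). The Rubisco small-subunit genes AT5G38410 and AT5G38430 stood at 0.30 and 0.28 in 1x salt (SE 0.15 and 0.14) and fell by 0.91 and 0.70 in 3x salt, calls not kept with close arrays averaged (adjusted p = 0.0582 and 0.0754).

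The largest differences belonged to genes with no symbol in the RefSeq table. AT3G16670 read 14.55, 13.92 and 13.07 in 1x salt, 8.02, 7.32, 5.4 and 6.39 in 3x salt, and 11.16, 10.51, 10.57 and 11.46 in no salt, which is 7.59-fold higher and 17.7-fold lower. Of its 4 3x salt arrays, 3 were above background, and its difference in 3x salt was -4.14 on all arrays, -3.25 without arrays 3 and 4, -5.03 without arrays 1 and 2 and -3.3 on scanner values with normexp. Its neighbour AT3G16660, with no gene between them in the RefSeq table, read 13.42, 12.66 and 11.78 in 1x salt, 8.40, 8.25, 8.36 and 8.66 in 3x salt, and 11.55, 11.56, 11.28 and 11.87 in no salt. Both were far below no salt on all 4 3x salt arrays, and the lowest 1x salt array of AT3G16660 lay inside the no-salt range.

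AT3G05730 had the lowest difference in 3x salt, -4.70, with 15.97, 15.19 and 14.60 in 1x salt, 10.64, 9.64, 8.76 and 9.0 in 3x salt, and 14.15, 14.16, 14.11 and 14.42 in no salt. AT5G03350 read 12.56, 11.36 and 11.08 in 1x salt, 7.21, 7.82, 8.70 and 8.62 in 3x salt, and 11.22, 10.70, 10.65 and 11.02 in no salt, so one 1x salt array lay inside the no-salt range. AT5G45670 read 9.16, 7.88 and 7.94 in 1x salt, 5.49, 5.87, 5.13 and 5.23 in 3x salt, and 6.85, 7.79, 7.86 and 7.77 in no salt, with 2 of its 4 3x salt arrays above background. Its difference in 3x salt was -2.14, against -2.84 on the scanner values and -1.24 with normexp. In AT3G05730, AT5G03350 and AT5G45670, 1x salt array 1 was the highest of its group, as in 41 of the 73 members. A second pair of neighbours with no gene between them was AT5G19110 (1.23 and -0.95) and AT5G19120 (1.43 and -0.87). AT5G19110 read 7.97, 9.39 and 9.96 in 1x salt, so its array 1 lay inside the no-salt range of 7.30 to 8.22.

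The other genes that stood more than 1 away from no salt in both regimes were AT3G60490 (1.43 and -1.27), AT5G01015 (1.15 and -1.43), AT3G06880 (1.13 and -1.16), AT4G28780 (1.31 and -1.12), AT5G67050 (1.07 and -1.28) and AT4G37240 (1.26 and -1.41). AT3G60490 read 9.91, 9.06 and 9.78 in 1x salt, 6.81, 6.73, 7.04 and 6.96 in 3x salt, and 7.61, 8.30, 8.27 and 8.43 in no salt, with an SD of 0.14 over the 3x salt arrays. AT4G37240 read 13.29, 11.70 and 11.61 in 1x salt, 10.89, 11.05, 7.98 and 8.19 in 3x salt, and 9.93, 11.13, 11.30 and 11.39 in no salt, with an SD of 1.67 there. Large differences thus came both with even and with split 3x salt arrays. Among members without a symbol, AT1G12570 (1.67, with 9.32, 8.25 and 7.95 in 1x salt) and AT2G23690 (1.56) also stood well above no salt in 1x salt. The 38 members given no role, for lack of a symbol or a synonym used here, had median differences of 0.90 and -0.84. Of these, 18 had every 1x salt array above and every 3x salt array below every no-salt array, as did 0.857% of all loci. The rule used these values.

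On the scanner values of the same arrays, 72 members had a probe and 72 of these 72 kept both directions, 68 of them past both thresholds. AT1G15175 had no matched probe. Among 19 members with several probes, every probe of each kept both directions. Of the 72, limma called 46 higher in 1x salt, where 9.21% of all genes were called higher, and 59 lower in 3x salt, where 23.6% were called lower. The rule used the same contrasts, so these counts are not a test. Members above background on all 11 arrays numbered 67. The members lay on all 5 chromosomes, with 13, 8, 15, 16 and 21 on chromosomes 1 to 5.

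Several pathways with no member had genes that rose in 1x salt and genes that fell in 3x salt. Of 21 mitotic cell cycle genes, which include cyclins and their kinases, 7 rose and none fell in 1x salt, 1 rose and 16 fell in 3x salt, and 4 did both, where 0.951% of all genes did both. Without 3x salt arrays 3 and 4, 2 of the 21 did both, and without arrays 1 and 2, 5 did. The stomatal lineage markers also rose in 1x salt, as given above, and their part in these counts was not tested. The median differences of the mitotic genes were 0.51 and -1.37, against 0.035 and 0.036 over all genes tested. Of those that fell, CYCB1;2, CYCB1;3, CYCB2;2, PLE and AUR2 were above background on 0 of 4 3x salt arrays, so the size of their falls is uncertain. The 4 that did both were CYCB2;2, CDKB1;1, CDKB2;1 and CYCD3;1. In 3x salt they stood at -1.56, -0.64, -1.11 and -0.38 on the scanner values. In the deposited table they stood at -0.69, -0.28, -0.74 and -0.25. PLE stood at -1.48 on the scanner values and -0.47 in the deposited table. Of 8 DNA replication genes, 6 rose in 1x salt (9.21% of all genes) and 2 fell in 3x salt, a share of the list near the 23.6% of all genes, and 2 did both, or 0 without 3x salt arrays 3 and 4. Of 19 aquaporins, the water channels of membranes, 7 rose in 1x salt, 1 rose and 9 fell in 3x salt (27.9% and 23.6% of all genes), and 1 did both.

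In other growth and surface pathways the counts are set against all genes, of which more passed in 3x salt (27.9% higher and 23.6% lower) than in 1x salt (9.21% higher and 7.68% lower). All 8 genes of primary wall cellulose fell in 3x salt, and 0 passed in 1x salt with limma or at an unadjusted p under 0.05. Of 12 alpha-expansins, which loosen walls, 2 rose in 1x salt and 1 rose and 7 fell in 3x salt. Of 18 brassinosteroid and gibberellin growth genes, 4 rose and 1 fell in 1x salt, and 2 rose and 9 fell in 3x salt. Of 10 glucosinolate synthesis genes, none passed in 1x salt with limma (3 were lower at an unadjusted p under 0.05) and 10 fell in 3x salt. Of 31 wax and cutin genes, 11 rose in 1x salt, 8 rose and 10 fell in 3x salt, and 2 did both. With close arrays averaged, no gene of these lists passed in 1x salt, and 8 mitotic, 0 replication, 2 aquaporin, 2 cellulose, 1 expansin, 2 hormone, 5 glucosinolate and 3 wax and cutin genes fell in 3x salt.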

How the data were processed

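The 11 guard-cell-enriched RNA samples were labelled with Cy3 and each hybridised to 1 Agilent array, per the labels' protocols. The deposited table holds the authors' normalised log2 values per locus; its scale was judged against the scanner values (each array's deviations from the gene means correlated best with its own column, 0.79 to 0.93), while how it was normalised and centred is not given in the sources used here. Its column medians were 8.29 to 8.34. The deposited scanner files hold intensity values made with Feature Extraction 11.5.1.1, background-subtracted and detrended, per the file headers, and other columns there are 0 or 1 flags deposited with each spot. The arrays held 43803 spots each, 66.24% to 80.25% well above background, and their number limits the precision.

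The members come from group means of the deposited table. For the other genes, log2 processed intensity minus each array's 75th percentile was used, with the brightest probe for a gene, keeping the 23457 of 34290 genes that reached 3 or more arrays well above background. These are 19320 loci and 4137 array targets matched to no locus, each counted as a gene. Over the loci alone 9.85% rose in 1x salt and 24.3% fell in 3x salt. The fit used limma 3.58.1 under R 4.3.3 (functions lmFit and eBayes, 8 residual degrees of freedom, Benjamini-Hochberg). Every adjusted p comes from this limma fit, or from the same fit under the setting named beside it. Of 43603 probes, 34348 matched 25410 loci. On simulated data for 23238 genes, 72% of simulated log2 changes of size 1 and 27% of those of size 0.5 were called for 1x salt against no salt, and 77% and 34% for 3x salt against no salt. The simulation drew independent noise for each array and changed 100 genes per size. The real arrays form close sets and far more genes passed, so these rates do not give the power in these data. A bound for a gene not above background in a group takes, per array, the higher of its own signal and the lowest signal among probes above background.

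The members and the gene lists were chosen with earlier results of these data known. Named members are the 12 with the largest smaller difference, the 5 largest in each direction, those in a list, and those at the thresholds. Members named beyond these, and role groups, were chosen after their values were seen. Named non-members are the 2 with the smallest adjusted p per comparison in each list with a member, and the loci just outside the thresholds. XTH9, EXPA9 and the mitotic genes were named after their values were seen. Sequences and promoter motifs were not analysed here. Python 3.11.15, pandas 2.3.3, numpy 2.4.6 and matplotlib 3.10.9 were used.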

Additional observations from a re-analysis of the deposited data

Results flagged for a closer look

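Each group of 4 samples was examined for an array set apart from the other 3, by its gap to the nearest of them as a share of the group's range against Dixon's 95% critical value (groups of 3 were not examined). Of 146 groups, 17 passed, and chance flags about 1 in 20 independent groups. That rate is no reference here, because the rule chose the genes on these values (a low no-salt array 1 raises 1x salt minus no salt) and all groups share the same 8 arrays. In 12 of the 17 the array was no-salt array 1, as the lowest: XTH6 (0.938), AT4G08910 (0.847), AT1G17620 (0.870), AT3G05470 (0.917), AT5G45670 (0.911), AT1G11850 (0.849), BRS1 (0.849), CSLA11 (0.866), FLA13 (0.940), PHI-1 (0.837), AT2G23690 (0.907) and PME41 (0.890). Over all members that array lay below the mean of the other 3 in 61 of 73, by a median difference of -0.43. No-salt array 3 was lowest for LHB1B1 (0.922), no-salt array 2 highest for AT1G12570 (0.856) and no-salt array 4 highest for AT3G05730 (0.832). 3x salt array 2 was highest for AT4G08910 (0.874) and RTM3 (0.919). The cause was not tested.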

How the results depend on the processing

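The rule on group means gave 73 loci, 12 with thresholds of 1 and -1, 219 with 0.5 and -0.3, and 202 (68 of the 73 among them) on scanner values by the differences alone. Leaving out 1 array gave 62 to 106 loci, of which 48 to 73 were among the 73, the fewest without no-salt array 1. Group medians kept 54 of the 73 in a set of 75, close arrays averaged kept 59 in a set of 100, and no floor gave 88. After seeing the data, the 3x salt arrays were also left out in pairs: without arrays 3 and 4 the rule gave 47 loci (37 of the 73, 50.7% of them and 78.7% of the 47), and without arrays 1 and 2 it gave 140, all 73 among them. Without arrays 3 and 4, 3x salt minus no salt turned positive for AT4G37240 (0.03), FLA12 (AT5G60490, 0.05), FLA13 (AT5G44130, 0.45), PHI-1 (AT1G35140, 1.18), AT2G23690 (0.30), AT3G06770 (0.13), SAUR50 (AT4G34760, 0.35) and LGT9 (AT1G24170, 0.26). No member changed direction in either contrast without any single array, with medians, with close arrays averaged, or on scanner values under the normalisations run. The rule chose the members by these differences on the same arrays, so kept directions are not a test. On scanner values with normexp, the difference moved by at least its within-group SD in 15 members for 3x salt and in 8 for 1x salt. On slide 1 alone, 56 of 72 members kept both directions on scanner values.

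Over all genes, 3962 passed in 1x salt against no salt, 12068 in 3x salt against no salt and 9102 in 3x against 1x salt. Close arrays averaged gave 2, 2218 and 511, a fit with 6 samples, and the deposited table gave 2622 in 1x salt. Leaving out 1 array gave 2277 to 5580, 10439 to 12766 and 7450 to 9134, with 2565, 2277 and 2521 in 1x salt without 1x salt array 2, 1x salt array 3 and no-salt array 3. Of the calls in 3x against 1x salt, 51.1% were higher, and 61.8% with quantile normalisation. Same-numbered arrays correlated from -0.119 to 0.301 in their deviations from the group means, above 0 in 9 of 10 pairs but not above 0.1 in every pair, so the numbers were not taken to pair the samples. As a hint from the data, each of the 3 same-numbered pairs of 1x salt and no salt (0.093 to 0.145) exceeded every pair with different numbers (at most 0.031), and these pairs share slides 1, 2 and 4. A replicate block gave 3269, 12613 and 9083 calls. Slide as a random block gave 4992, 12779 and 9684. Among the members, levels near background limit THI2.2, AT5G45670, AT3G16670, AT4G08910 and GER3 in 3x salt. The search for promoter motifs was not run.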
